A study of Mus musculus with 6 samples.

Results

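Transcripts of 10 genes of the neuromuscular synapse were examined in adult mouse tibialis anterior, a fast-twitch muscle that lifts the foot. The genes encode the 5 subunits of the muscle acetylcholine receptor (Chrna1, Chrnb1, Chrnd, Chrne and Chrng), 4 proteins that build and hold the postsynaptic membrane (Musk, Lrp4, Dok7 and Rapsn), and acetylcholinesterase (Ache). They were chosen by name, and each of the 10 symbols matched 1 of 54393 genes in the deposited table through the GENCODE M21 annotation. The WT group held 3 adult muscles, titled C57, replicates 1, 3 and 4, and the Dock3 KO group held 3 adult muscles, replicates 1, 2 and 3, so n = 3 in each group below. No treatment was given in the labels, and the Dock3 KO titles name no strain. How Dock3 was disrupted, and whether muscles came from separate animals, was not given in the sources used here, so p-values measure the spread between these muscles. Dock3 encodes an exchange factor that activates the small GTPase Rac. The comparison asks how transcript levels in adult muscle differ when Dock3 is knocked out.

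At the neuromuscular synapse a motor nerve terminal releases acetylcholine onto a small patch of the muscle fibre that is packed with receptors. Nerve-derived agrin binds Lrp4, which activates the receptor tyrosine kinase Musk. Dok7 is the adaptor that binds and helps activate Musk inside the fibre, and rapsyn (Rapsn) anchors the receptors. Fetal receptors carry the gamma subunit (Chrng), and adult receptors carry epsilon (Chrne) in its place. Only the few nuclei beneath the synapse transcribe these genes strongly in an innervated fibre, while electrical activity holds Chrna1, Chrnd, Chrng and Musk low elsewhere through myogenic factors that bind E-boxes. ETS factors that bind the N-box contribute to synaptic transcription of genes such as Chrne. In whole muscle, fewer synaptic nuclei and less RNA per nucleus cannot be told apart.

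Promoter stretches are shown as examples of these motifs for Chrna1, Chrng and Musk, which had lower values in Dock3 KO, and for Chrne. Each is the 250 bases before the RefSeq transcription start (GRCm38.p6), read 5′ to 3′ on the gene's strand, with E-boxes (CANNTG, its own reverse complement) and N-boxes (CCGGAA on either strand) in capitals. The positions are chr2:73580339-73580588 (minus strand) for Chrna1, chr1:87205561-87205810 (plus strand) for Chrng, chr4:58285712-58285961 (plus strand) for Musk and chr11:70619195-70619444 (minus strand) for Chrne.
Chrna1: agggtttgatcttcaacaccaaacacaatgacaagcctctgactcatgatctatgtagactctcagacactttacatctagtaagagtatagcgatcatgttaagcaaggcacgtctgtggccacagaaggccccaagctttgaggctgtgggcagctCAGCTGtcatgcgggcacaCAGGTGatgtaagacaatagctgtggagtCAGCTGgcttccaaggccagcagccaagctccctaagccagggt
Chrng: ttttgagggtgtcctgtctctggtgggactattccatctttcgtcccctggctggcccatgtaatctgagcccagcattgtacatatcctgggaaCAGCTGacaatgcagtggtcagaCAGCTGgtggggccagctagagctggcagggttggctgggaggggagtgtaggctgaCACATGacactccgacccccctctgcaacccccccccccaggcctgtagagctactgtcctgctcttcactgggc
Musk: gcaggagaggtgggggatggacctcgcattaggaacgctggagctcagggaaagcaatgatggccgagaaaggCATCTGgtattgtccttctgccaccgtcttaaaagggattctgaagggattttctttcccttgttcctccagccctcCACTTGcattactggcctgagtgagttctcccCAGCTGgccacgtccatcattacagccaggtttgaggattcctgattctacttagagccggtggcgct
Chrne: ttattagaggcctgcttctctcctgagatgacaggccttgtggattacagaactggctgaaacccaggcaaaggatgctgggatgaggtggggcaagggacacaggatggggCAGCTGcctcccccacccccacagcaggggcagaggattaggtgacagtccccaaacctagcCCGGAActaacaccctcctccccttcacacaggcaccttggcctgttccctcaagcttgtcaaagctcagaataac

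Chrna1, Chrng and Musk each held 3 E-boxes in this window, and Chrne held 1 E-box and 1 N-box. The Chrna1 E-boxes begin 92, 73 and 44 bases before the start, those of Chrng 155, 132 and 75 bases, and those of Musk 177, 100 and 68 bases. In Chrne the E-box begins 138 bases and the N-box 76 bases before the start. Of 32851 RefSeq promoters of the same length, 66.2% held at least 1 CANNTG, 12.2% held 3 or more, and 12.0% held an N-box. Chrnb1 also held 3 E-boxes, while Dok7 and Ache held 1 each, in the first listed promoter where a gene has several, and none of these held an N-box. Promoters were matched for 7 of the 10 genes. Chrnd, Rapsn and Lrp4 were not among them. The Chrng start in RefSeq lies inside the gene as GENCODE M21 draws it, so that window belongs to the RefSeq start alone. Ache, with 1 E-box, had every Dock3 KO value below every WT value, while Chrnb1, with 3, overlapped between groups. A match is a stretch of letters and no measure of binding. Any part of these motifs in the Dock3 KO values was not tested.

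Values are the authors' normalized counts, which put the samples on a common scale. Dock3 itself measured 169, 161 and 118 normalized counts for WT replicates 1, 3 and 4, while Dock3 KO replicates 1, 2 and 3 measured 22.4, 1.78 and 1.54, which matches the genotype labels, with replicate 1 the highest of the Dock3 KO muscles. With the commonest low value of a sample taken as 1 read, depth was estimated at 21700000 to 32500000 reads per muscle. This is a rough estimate, as whole reads were not recovered. Dock3 KO replicates 1 and 2 stood apart from the other 4 muscles, with 17.9% and 20.3% of their summed values in Gm42418 and Lars2 against 3.00% to 3.64%, so the difference of each of the 10 genes is also given from replicate 3 alone against WT. In that comparison only the WT muscles supply the spread, and the lone Dock3 KO muscle is assumed to vary like them. The tissue label was checked with 8 muscle fibre markers such as Acta1 and Ckm, which were abundant and summed to 1209930 to 1323670 normalized counts in WT and 1219660 to 1362310 in Dock3 KO. Motor neuron markers, whose RNA stays mostly in the spinal cord, summed to at most 16 over 6 genes, and Slc18a3, the vesicular acetylcholine transporter, was at 0 in every muscle.

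None of the 10 genes passed the test between Dock3 KO and WT. Chrna1, Chrnd, Chrng, Musk and Ache had every Dock3 KO value below every WT value, with means 27.1% lower for Musk, 37.3% for Ache, 38.9% for Chrna1 and 48.8% for Chrnd. The Chrng mean was 92.2% lower, or 73.9% without WT replicate 4. Chrne, Chrnb1 and Dok7 had lower means with overlapping groups, and Rapsn and Lrp4 had means within 5% of WT. After fitting limma over 16031 genes with a mean of at least 10, 0 of the 10 genes had a Benjamini-Hochberg adjusted p under 0.05, against 1.03% of all genes tested (0.586% that were lower), and 5, all lower, had an unadjusted p under 0.05, against 10.5% of all genes (5.7% that were lower). All 10 passed the filter, Chrng only through WT replicate 4, so that its difference is partly fixed by the filter. The 5 of 10 genes without overlap, all lower, compare with 8.65% of all genes tested that were lower without overlap. The log2 difference was below 0 for 8 of the 10, against 51% of all genes. Among the 9 genes other than Chrng, 4 had no overlap, 4 had an unadjusted p under 0.05 and 7 were below 0. The median log2 difference was -0.42 over the 10 genes, -0.36 without Chrng, and -0.01 over all genes tested, on the log2(normalized count + 1) scale used for every log2 difference here. The 10 genes were chosen with earlier results of these data known, so these counts describe them and carry no test of the group.

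**Figure D1:**
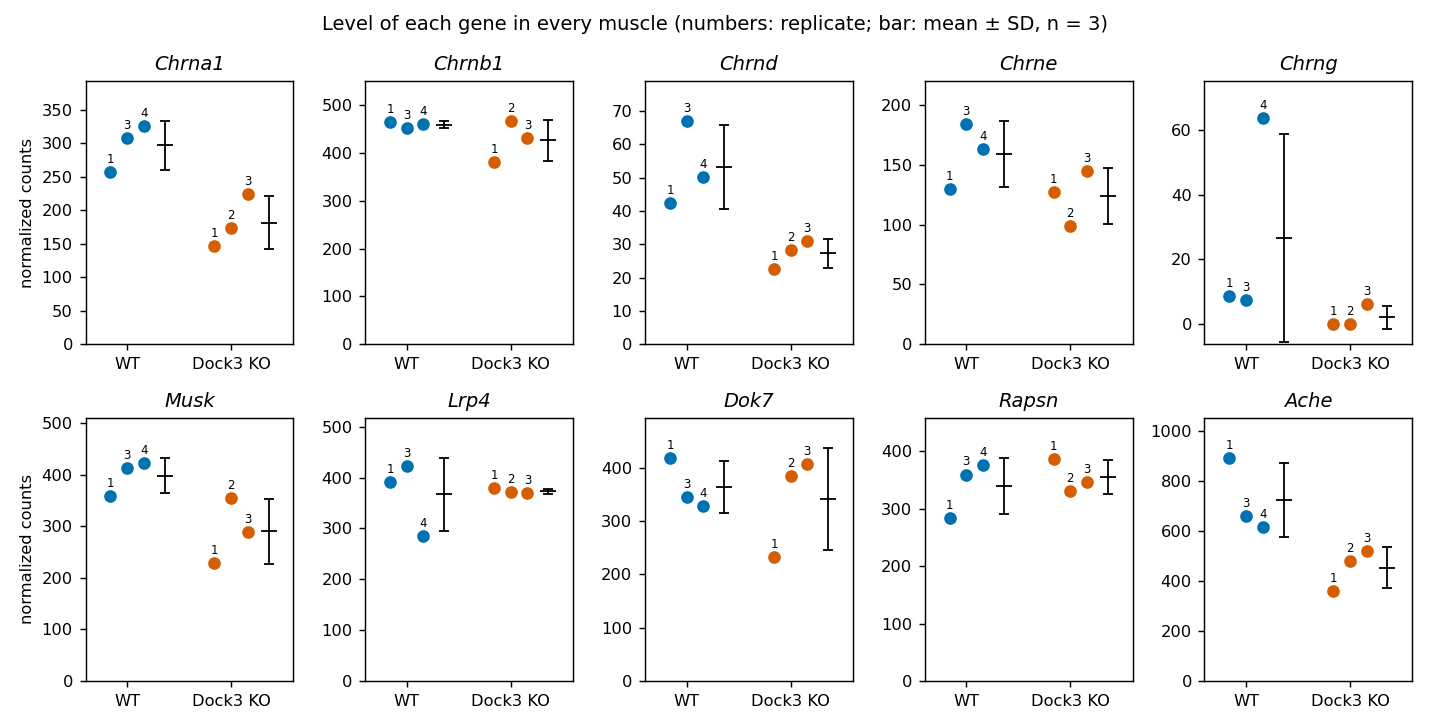
Normalized counts (vertical axis, from 0 except for Chrng, whose SD bar reaches below 0) of each gene in WT (blue) and Dock3 KO (orange) muscles. Points carry the replicate number and black bars show the mean ± SD of n = 3. Chrna1, Chrnd, Chrng, Musk and Ache show 2 separate groups, and the other 5 genes overlap.

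Chrna1 encodes the alpha subunit, which carries most of each acetylcholine binding site and is present in a pair in every receptor. It lies on chromosome 2, minus strand, from 73563215 to 73580338 (GRCm38, GENCODE M21, as for all genes below). Its values were 256, 308 and 326 normalized counts for WT replicates 1, 3 and 4, while Dock3 KO replicates 1, 2 and 3 had 146, 174 and 224. The lowest WT muscle, replicate 1, lay above the highest Dock3 KO muscle, replicate 3. The mean was 297 ± 36 (SD, n = 3) in WT and 181 ± 39.5 in Dock3 KO, 38.9% lower. The log2 difference was -0.72 (SE 0.203, 95% interval -1.18 to -0.27), with the smallest p of the 10 genes and an adjusted p of 0.192 (limma). Over all genes tested, 438 had a smaller p. Replicate 3 alone against WT gave -0.40 (limma adjusted p = 0.737).

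Chrnd encodes the delta subunit, shared by fetal and adult receptors. It lies on chromosome 1, plus strand, from 87190607 to 87200070, next to Chrng. Its values were 42.5, 66.9 and 50.1 normalized counts among WT muscles, against 22.5, 28.2 and 31.1 among Dock3 KO muscles, so that the groups lay apart, with Dock3 KO replicate 3 again nearest to WT. The mean was 53.2 ± 12.5 (SD, n = 3) in WT and 27.2 ± 4.37 in Dock3 KO, 48.8% lower. This gave a log2 difference of -0.93 (SE 0.327, 95% interval -1.66 to -0.20, limma adjusted p = 0.323), and -0.73 with replicate 3 alone. In proportion to its level this was the widest gap among the 9 genes other than Chrng.

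Chrng, on chromosome 1, plus strand, from 87204657 to 87212694, encodes the gamma subunit that adult innervated fibres have largely switched off. It measured 8.58, 7.26 and 63.6 normalized counts for WT replicates 1, 3 and 4, while Dock3 KO replicates 1, 2 and 3 measured 0, 0 and 6.19. WT replicate 4 stood far above the other muscles, and Dock3 KO replicate 3 lay just under WT replicates 1 and 3. With the commonest low value taken as 1 read, a read was worth about 0.775 to 0.886 normalized counts in the WT muscles and Dock3 KO replicate 3. In Dock3 KO replicates 1 and 2 it was worth about 1.40 and 1.52. Outside WT replicate 4, these are low levels measured by few reads. The log2 difference of -3.16 (SE 1.12, 95% interval -5.67 to -0.65, limma adjusted p = 0.327) was -2.20 without WT replicate 4, -1.73 with the replicate block and -1.26 with replicate 3 alone. The replicate block groups muscles by replicate number, so its difference comes from replicates 1 and 3, the numbers present in both genotypes. WT replicate 4 and Dock3 KO replicate 2 add nothing to that difference. The filter used the mean of all 6 muscles in every fit. Without WT replicate 4, Chrng thus stayed tested only through the value of that muscle.

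Genes of immature or regenerating fibres did not share one order among the WT muscles. Myh3, embryonic myosin, stood at 160 normalized counts in it, against 65.9 and 72.3 in WT replicates 1 and 3 and 47.5 to 90.1 in Dock3 KO. Myog, myogenin, named here after its values were seen, stood at 100 in it, against 47.0 and 60.8 in the other WT muscles and 31.8 to 61.3 in Dock3 KO. Of the other markers on that list, Pax7 was lowest in WT replicate 4 among WT muscles (67.6, against 71.9 and 72), Myh8 was at 90.6 in it and 94.4 in WT replicate 1, and Myod1 at 707 in it and 717 in WT replicate 3. The summed level of the 4 immature fibre markers (Myh3, Myh8, Pax7 and Myod1) was 748 to 1025 in WT and 608 to 664 in Dock3 KO, most of it from Myod1. Their part in the Chrng values was not tested.

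Chrne, on chromosome 11, minus strand, from 70614883 to 70619216, encodes the epsilon subunit that replaces gamma after birth. Its values were 130, 184 and 163 normalized counts among WT muscles, against 127, 98.8 and 145 among Dock3 KO muscles, and Dock3 KO replicate 3 exceeded WT replicate 1. The mean was 159 ± 27.6 (SD, n = 3) in WT and 124 ± 23.4 in Dock3 KO, a log2 difference of -0.36 (95% interval -0.87 to 0.15, limma adjusted p = 0.653). With replicate 3 alone the difference was -0.12. A gene on the other strand, 4930544D05Rik, overlaps Chrne, and the use of strand in counting is not given in the sources used here.

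Chrnb1, on chromosome 11, minus strand, from 69784036 to 69795943, encodes the beta subunit. Its values were 465, 452 and 461 normalized counts among WT muscles, against 382, 466 and 431 among Dock3 KO muscles. The WT muscles were close together, and Dock3 KO replicate 2 lay above all of them while replicates 1 and 3 lay below. The log2 difference was -0.11 (95% interval -0.43 to 0.21, limma adjusted p = 0.867), so the interval reaches from a level 0.742 times that of WT to one 1.16 times that of WT. With replicate 3 alone it was -0.09.

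**Figure D2:**
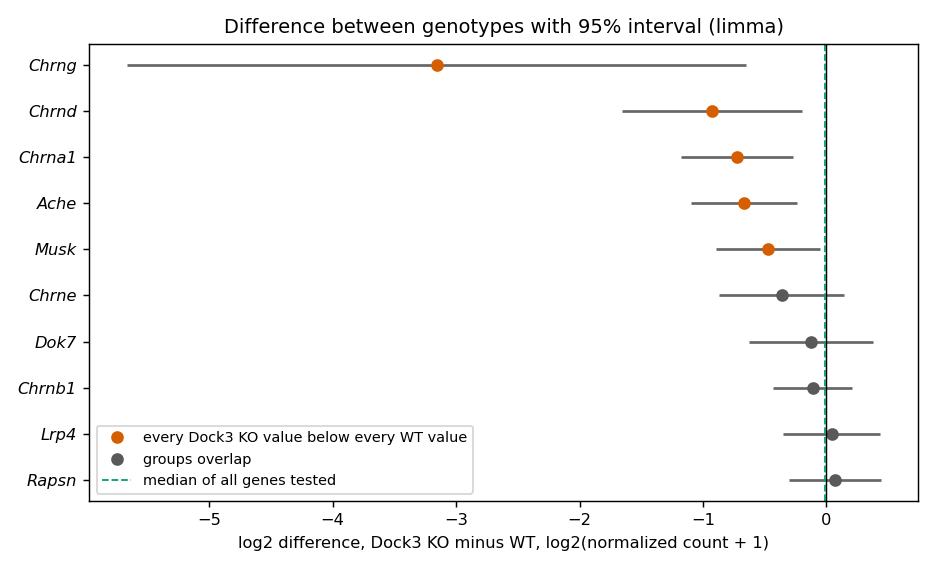
Log2 difference between Dock3 KO and WT (horizontal axis, below 0 is lower in Dock3 KO) for each gene, with its 95% interval from limma. The intervals of Chrng, Chrnd, Chrna1, Ache and Musk lie below 0 before adjustment, and no adjusted p is under 0.05; the dashed line marks the median of all genes tested, -0.01.

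The subunits differed in level per length, taken as normalized counts per kb of the longest protein-coding transcript. In WT, Chrnb1 had the highest level per kb of the 5 at 213 ± 3.18, followed by Chrne at 98.4 ± 17.1, Chrna1 at 67.6 ± 8.22, Chrnd at 18 ± 4.24 and Chrng at 9.53 ± 11.57 (SD, n = 3 each). In WT the neighbours in this order lay apart in all muscles except Chrnd and Chrng, which overlapped through WT replicate 4. In Dock3 KO the order of means was the same, at 198, 76.6, 41.3, 9.23 and 0.742 per kb. The Chrna1 length of 4386 bases comes from the only transcript that GENCODE M21 gives for it, so its place depends on that model.

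As a share of the summed level per kb, which does not depend on the scaling of a sample, Chrna1 made up 15.7%, 16.8% and 17.3% in WT replicates 1, 3 and 4 and 11.2%, 12.1% and 14.4% in Dock3 KO replicates 1, 2 and 3. Chrnd made up 3.87% to 5.41% in WT and 2.57% to 2.98% in Dock3 KO. Both subunits had separate groups in this share too. Chrng did not, with 0.629% in Dock3 KO replicate 3 against 0.623% in WT replicate 3. Chrne made up 21.6% to 27.2% in WT and 18.7% to 26.6% in Dock3 KO, and Chrnb1 49.9% to 58.0% and 56.6% to 66.2%, with overlap in both. The shares of 1 muscle add up to a whole, so they are not independent of each other.

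**Figure D3:**
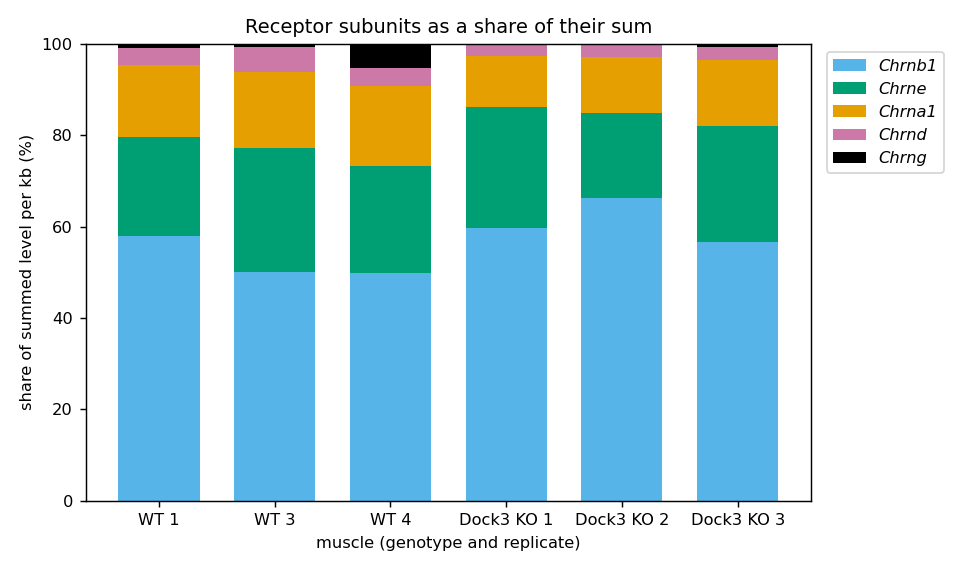
Share of each receptor subunit in the summed level per kb of the 5 subunits (vertical axis, percent) in every muscle. Chrna1 (orange) is 15.7% to 17.3% in WT and 11.2% to 14.4% in Dock3 KO, and Chrng (black) reaches 5.34% in WT replicate 4.

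The ratio of the fetal to the adult subunit was compared within muscles. The log2 ratio of Chrng to Chrne, each with 1 added, was -3.77, -4.49 and -1.34 for WT replicates 1, 3 and 4, against -7.0, -6.64 and -4.35 for Dock3 KO replicates 1, 2 and 3. The groups overlapped, since Dock3 KO replicate 3 lay above WT replicate 3. The difference was -2.80, with p = 0.2 in an exact two-sided permutation test, for which 3 against 3 muscles allow no p below 0.1. Without WT replicate 4 the difference was -1.87, and with replicate 3 alone it was -1.15. Chrne exceeded Chrng in every muscle of both genotypes, in normalized counts and per kb.

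Musk, on chromosome 4, plus strand, from 58285960 to 58374303, encodes the kinase that drives receptor clustering. Its values were 359, 413 and 423 normalized counts among WT muscles, against 228, 354 and 289 among Dock3 KO muscles. The groups lay apart by a narrow margin, with Dock3 KO replicate 2 just under WT replicate 1. The mean was 398 ± 34.2 (SD, n = 3) in WT and 290 ± 63.1 in Dock3 KO, 27.1% lower. This gave a log2 difference of -0.47 (SE 0.188, 95% interval -0.89 to -0.05, limma adjusted p = 0.399), and -0.46 with replicate 3 alone.

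Lrp4, on chromosome 2, plus strand, from 91457511 to 91513779, encodes the agrin receptor. Its values were 392, 422 and 286 normalized counts among WT muscles, against 379, 371 and 370 among Dock3 KO muscles, where the muscles were almost alike. Its log2 difference was 0.05 (95% interval -0.35 to 0.44, limma adjusted p = 0.967), and 0.03 with replicate 3 alone. Dok7, on chromosome 5, plus strand, from 35056766 to 35087839, measured 419, 346 and 328 for WT, against 233, 384 and 407 for Dock3 KO. Only Dock3 KO replicate 1 lay below the WT range, and the log2 difference was -0.13 (95% interval -0.63 to 0.38, limma adjusted p = 0.914). It was 0.13 without Dock3 KO replicate 1 and 0.17 with replicate 3 alone.

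Rapsn, on chromosome 2, plus strand, from 91035620 to 91045729, was at 284, 360 and 376 normalized counts among WT muscles, against 387, 331 and 347 among Dock3 KO muscles. The groups overlapped, although Dock3 KO replicate 1 lay above every WT muscle and WT replicate 1 below every Dock3 KO muscle. The log2 difference was 0.07 (95% interval -0.30 to 0.44, limma adjusted p = 0.937), and 0.04 with replicate 3 alone. A non-coding gene on the other strand, Gm13778, overlaps it. For Lrp4 and Rapsn the intervals leave room for a level between 0.786 and 1.36 times and between 0.813 and 1.36 times that of WT. When samples were rescaled to the same total, both log2 differences turned negative, to -0.23 for Lrp4 and -0.20 for Rapsn, while the median of all genes moved to -0.28. Relative to that median they were 0.05 and 0.08.

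Ache, on chromosome 5, plus strand, from 137287519 to 137294466, encodes the enzyme that breaks acetylcholine down in the synaptic cleft. Its values were 894, 660 and 618 normalized counts among WT muscles, against 362, 481 and 519 among Dock3 KO muscles, so every Dock3 KO muscle lay under every WT muscle. The mean was 724 ± 148 (SD, n = 3) in WT and 454 ± 82.0 in Dock3 KO, 37.3% lower. The log2 difference was -0.67 (SE 0.192, 95% interval -1.10 to -0.24, limma adjusted p = 0.201), and -0.46 with replicate 3 alone. Per kb, Ache had the highest WT mean of the 10 genes at 331 ± 67.9, apart from Chrnb1, the next in order. Gm42456, a non-coding gene on the other strand, and Mir8116, a microRNA gene on the same strand, overlap Ache.

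The level per kb of the other genes in WT was 212 ± 30.4 for Rapsn, 131 ± 17.3 for Dok7, 116 ± 10.005 for Musk and 46.3 ± 9.07 for Lrp4 (SD, n = 3 each). Among neighbours in the order, Rapsn overlapped Chrnb1, and Musk overlapped both Dok7 and Chrne, while Rapsn and Dok7 lay apart, as did Chrne and Chrna1. With the union of all annotated exons as length, Rapsn came first, followed by Chrnb1 and Ache. Transcripts of 483 other genes held a match of at least 100 bases and 90% identity to Chrna1, all within one stretch of 230 bases (positions 3077 to 3306 of its transcript, 5.24% of its length). One of these genes, Gm37750, matched Chrna1 at 95% identity or more over at least 50% of its own length, so the reads of that stretch are uncertain. For the other 9 genes no such match was found.

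Dock3 KO replicate 1 had the lowest value of the Dock3 KO muscles in Chrna1, Chrnb1, Chrnd, Musk, Dok7 and Ache, and the highest in Lrp4 and Rapsn. With replicate 3 alone, where 1 muscle stands against 3, and with log2 Gm42418 as a covariate, 0 of the 10 genes had a limma p under 0.05, adjusted or not. The Gm42418 covariate gave -0.35 for Chrna1, -0.68 for Chrnd, -0.47 for Ache and -0.46 for Musk, against -0.72, -0.93, -0.67 and -0.47 without it. Gm42418 and Lars2 together were high only in Dock3 KO replicates 1 and 2, so the covariate is tied to those muscles. The covariate fit and the fit of replicate 3 alone are therefore not independent checks. The part of Gm42418 and Lars2 in these values was not tested further.

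**Figure D4:**
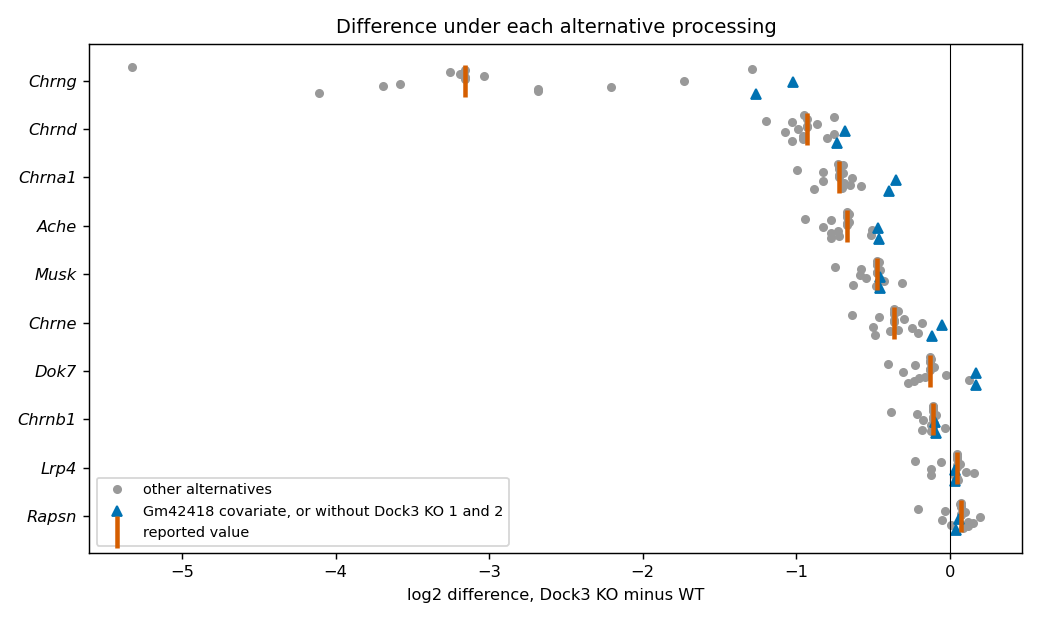
Log2 difference between Dock3 KO and WT (horizontal axis) for each gene under every alternative processing in which it was tested. Orange bars mark the reported value, grey points the other alternatives, and blue triangles the Gm42418 covariate and the fit without Dock3 KO replicates 1 and 2. Chrng ranges from -5.33 to -1.02, and Rapsn, Lrp4 and Dok7 lie on both sides of 0.

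Other genes of the synapse were taken from lists written from general knowledge of the junction, with earlier results of these data known. Of 59 of them tested, 3 passed an adjusted p of 0.05, all lower in Dock3 KO, and 11 had an unadjusted p under 0.05, beside 1.03% and 10.5% of all genes. In total, 8 were lower and 8 higher without overlap, beside 8.65% and 7.6% of all genes.

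On the list of receptor assembly and glycosylation genes, 1 of 7 fell, Ric3, beside 0.586% of all genes tested that passed as lower. The list's median log2 difference was -0.07. Ric3, an endoplasmic reticulum chaperone of nicotinic receptors, was at 199, 188 and 219 normalized counts among WT muscles, against 83.5, 102 and 108 among Dock3 KO muscles. The groups lay far apart, with a log2 difference of -1.04 (SE 0.197, limma adjusted p = 0.0391), and -0.90 with replicate 3 alone (limma adjusted p = 0.456). It no longer passed when any 1 of the 6 muscles was left out (limma adjusted p = 0.0897 to 0.181) or with the replicate block (limma adjusted p = 0.270), while the log2 difference stayed between -1.12 and -0.93 with 1 muscle left out. Tub overlaps Ric3 on the other strand. Alg14 and Alg2, which act in asparagine-linked glycosylation, had means of 171 and 415 in WT and 124 and 328 in Dock3 KO, without overlap and without passing (limma adjusted p = 0.416 and 0.501).

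On the neuregulin and synaptic transcription list, 0 of 9 genes passed in limma, and the median was -0.14. Of these, 2 had an unadjusted limma p under 0.05, beside 10.5% of all genes tested. Erbb3, a neuregulin receptor of muscle and Schwann cells, was at 166, 191 and 200 normalized counts among WT muscles, against 121, 112 and 128 among Dock3 KO muscles. Every Dock3 KO muscle lay below WT (log2 difference -0.62, limma adjusted p = 0.227, and -0.53 with replicate 3 alone). Its partner Erbb2 had means of 124 ± 7.45 and 94.1 ± 12.4 (SD, n = 3), also without overlap (limma adjusted p = 0.567). Etv5, an ETS factor of synaptic nuclei, measured 369, 343 and 283 for WT, against 220, 180 and 287 for Dock3 KO, and Dock3 KO replicate 3 reached into the WT range (limma adjusted p = 0.354).

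Schwann cells also make Erbb3, so their markers were compared. The 8 Schwann cell markers summed to 1633 to 2171 normalized counts in WT and 1726 to 2079 in Dock3 KO. The sums overlapped between genotypes. Fibroblast markers summed to 23516 to 26012 in WT and 24122 to 29423 in Dock3 KO, with most of the sum from Dcn. Macrophage markers summed to 3435 to 4168 in WT and 2653 to 3467 in Dock3 KO. Of the 4 fibroblast markers, 1 rose, beside 0.443% of all genes tested that passed as higher. This was Col1a1, a fibrillar collagen chain (log2 difference 1.38, limma adjusted p = 0.0228). Dcn, Lum and Pdgfra on the same list stood at -0.28, -0.48 and 0.15 (log2 difference) and did not pass. Col1a1 did not pass without Dock3 KO replicate 1, 2 or 3 (limma adjusted p = 0.0552, 0.104 and 0.109) or with replicate 3 alone (1.57, limma adjusted p = 0.364). The part of these cells in the receptor values was not tested.

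On the list of acetylcholine breakdown and anchoring, which includes Ache, 0 of 4 genes passed in limma. Of these, 2 had an unadjusted limma p under 0.05, beside 10.5% of all genes tested. Colq, the collagen tail that holds acetylcholinesterase in the synaptic basal lamina, was at 67.6, 142 and 126 normalized counts among WT muscles, against 45.7, 60.6 and 74.1 among Dock3 KO muscles. WT replicate 1 fell among the Dock3 KO muscles (log2 difference -0.84, limma adjusted p = 0.383). Bche, butyrylcholinesterase, overlapped between groups, with means of 241 and 179 (limma adjusted p = 0.549). Prima1, the membrane anchor used in the brain, was higher in all Dock3 KO muscles at a low level, 14.6 ± 5.23 against 25.6 ± 2.33 (SD, n = 3, limma adjusted p = 0.578).

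The synaptic basal lamina list had a median of 0.16, with 0 of 10 genes passing in limma. Of these, 5 had an unadjusted limma p under 0.05, beside 10.5% of all genes tested. Colq, which was lower and is also on the breakdown list, is 1 of the 5. Without overlap, 4 were higher, beside 7.6% of all genes tested. Col4a5, a collagen IV chain, was at 30.9, 53.1 and 48.3 normalized counts among WT muscles, against 101, 97.5 and 101 among Dock3 KO muscles. This was the widest gap on the list, a log2 difference of 1.20 (limma adjusted p = 0.104). Nid2 (nidogen) and Col4a4 differed by 0.51 and 0.69 (limma adjusted p = 0.213 and 0.254).

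The agrin pathway and scaffold list had a median of 0.04 over 16 genes, with 0 passing in limma, adjusted or at an unadjusted p under 0.05. Without overlap, 3 were higher and 1 lower, beside 7.6% and 8.65% of all genes tested. The smallest p-values were those of Abl2, a tyrosine kinase, Dnaja3, a co-chaperone that binds Musk, and Dvl1, a Musk-binding Wnt adaptor. Their log2 differences were 0.29, 0.21 and -0.19 (limma adjusted p = 0.581, 0.609 and 0.686). Rescaled to the same total, Dnaja3 stood at -0.07 and Utrn at -0.03, both above the median of all genes, which moved to -0.28. The utrophin complex list had a median of 0.01 over 7 genes, with 0 passing in limma, adjusted or not. Its smallest p was that of Utrn, the synaptic relative of dystrophin, with means of 2016 ± 132 for WT and 2425 ± 500 for Dock3 KO (SD, n = 3), with overlap.

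**Figure D5:**
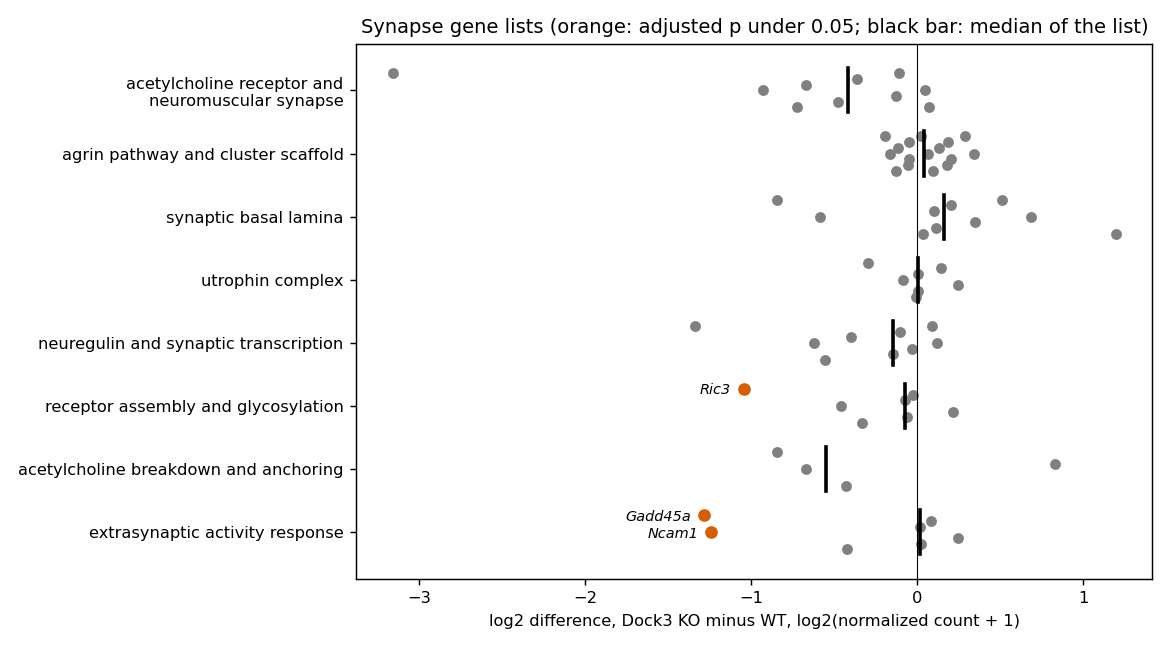
Log2 difference between Dock3 KO and WT (horizontal axis) of each tested gene, by list, with the list's median as a black bar. Orange points passed an adjusted p of 0.05 in limma, and all 3 (Ric3, Gadd45a and Ncam1) are lower in Dock3 KO; a gene on more than 1 list is drawn on each.

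The other 11 nicotinic receptor subunits, which are mainly neuronal, were nearly silent. Only Chrna4 reached a mean of 10, with means of 25.9 ± 6.52 for WT and 37.1 ± 15.9 for Dock3 KO (SD, n = 3), with overlap (limma adjusted p = 0.774). Chrna6 was at 0 in every muscle, and the other 9 were below 10 in every muscle.

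Chrna1, Chrnd, Chrng and Musk respond to loss of the nerve, as do Gadd45a and Ncam1. The activity response list, which holds Gadd45a and Ncam1, was written with earlier results of these data known. Their values therefore carry no test of a shared response. On that activity response list, 2 of 7 tested genes fell, beside 0.586% of all genes tested that passed as lower. Gadd45a had a log2 difference of -1.28 (limma adjusted p = 0.0381), and Ncam1, a cell adhesion protein, one of -1.24 (limma adjusted p = 0.0464). Gadd45a was at 389, 561 and 779 normalized counts among WT muscles, against 220, 260 and 204 among Dock3 KO muscles, and Ncam1 at 210, 209 and 144, against 93.7, 78.4 and 64.0. Both had separate groups. With 1 muscle left out, Ncam1 did not pass (limma adjusted p = 0.0514 to 0.210), and Gadd45a passed only without WT replicate 1 (limma adjusted p = 0.0131, otherwise 0.0979 to 0.152). Their log2 differences then ranged from -1.42 to -1.10 for Ncam1 and from -1.54 to -1.04 for Gadd45a. With replicate 3 alone they were -1.52 and -1.44 (limma adjusted p = 0.280 and 0.405). The list's median was 0.02, with 4 of the 7 tested genes above 0 and 3 below. Myog overlapped between groups (log2 difference -0.42, limma adjusted p = 0.771), and Hdac4, a repressor that rises on denervation, stood at 0.24 (limma adjusted p = 0.706). Myod1, of the immature fibre list, was at 516, 717 and 707 normalized counts among WT muscles, against 401, 461 and 462 among Dock3 KO muscles, without overlap (log2 difference -0.54, limma adjusted p = 0.249).

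Across the 6 muscles, the genes whose log2 values followed Chrna1 most closely were Tyw3, Map3k5 and Rbfox2, each with Pearson's r of 0.99, picked as the highest of all genes tested. Tyw3 was at 67.8, 87.2 and 82.7 normalized counts among WT muscles, against 22.7, 31.9 and 47.0 among Dock3 KO muscles. Map3k5 had means of 331 ± 38.5 and 228 ± 41.2 and Rbfox2 of 1715 ± 64.0 and 1421 ± 108 (SD, n = 3). With 6 points that share 2 genotypes, so high an r among so many genes describes these muscles only.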

How the data were processed

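RNA of 3 WT and 3 Dock3 KO muscles was depleted of ribosomal RNA and sequenced as stranded read pairs, per the labels' protocols. The authors deposited 1 table of normalized counts per gene, used here as a signal with no fixed sum. The submitters' processing notes name Trim Galore 0.4.5, Salmon 0.12.0, DESeq2 1.22.1 and R 3.5.3 and the builds mm10 and GRCm38, without roles. Which annotation was used and how strand and shared reads were treated is not given in the sources used here. Of the low values in a sample (under 20), 22.9% to 34.8% were whole multiples, within 0.02, of the commonest one, so whole reads were not recovered and no count test was run.

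Identifiers were matched to GENCODE M21 symbols (54393 of 54393). Values were converted to log2(normalized count + 1), genes with a mean of at least 10 were kept, and a single limma model (limma 3.58.1, R 4.3.3) compared the genotypes across the 6 muscles, with the prior variance trended on mean level and no covariate. P-values were adjusted by Benjamini-Hochberg over all 16031 genes, with a threshold of 0.05. The steps were tested on simulated data. Promoters are RefSeq's. Plots were drawn with matplotlib 3.10.9 in Python 3.11.15.

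The genes and lists were chosen with earlier results of these data known. Named genes are Dock3, the 10 genes, genes of the other lists past the threshold or up to 3 with the smallest p, and the 3 genes most like the gene with the smallest p. Myog was named after its values were seen. A result that this rule would name is not reported here. Same-numbered muscles (replicates 1 and 3) correlated at 0.065 and 0.0066 in their deviations across genes. These values show no pairing by number but cannot exclude one, since only replicates 1 and 3 share a number.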

Additional observations from a re-analysis of the deposited data

How the results depend on the processing

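The alternatives were other pseudocounts, filters, scalings and prior variances, the replicate block, log2 Gm42418 as a covariate, and samples left out. Under all 18 of them, 0 of the 10 genes passed an adjusted p of 0.05 in limma, and the number at an unadjusted p under 0.05 ranged from 0 to 5; it was 3 without WT replicate 3, WT replicate 4 or Dock3 KO replicate 1, and 0 with the Gm42418 covariate or without Dock3 KO replicates 1 and 2. Where tested, Chrna1, Chrnb1, Chrnd, Chrne, Chrng, Musk and Ache stayed below 0 in every alternative (Chrnd and Chrng were not tested with a minimum mean of 50). Lrp4, Rapsn and Dok7, none of them past the threshold, took both signs.

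The count of genes passing over the whole table, 165, was 104 with a prior variance without trend, 57 with the Gm42418 covariate and 49 without Dock3 KO replicates 1 and 2, and 98 to 159 with 1 muscle left out (98 without WT replicate 4, 100 without Dock3 KO replicate 2). The 3 genes of the other synapse lists became 1 with quantile normalization and 0 with a prior variance without trend, the replicate block, the Gm42418 covariate or without Dock3 KO replicates 1 and 2, and 0 to 1 with 1 muscle left out. With 1 muscle left out, limma adjusted p-values of Ric3 were 0.0897 to 0.181. The 165 genes were 71 higher and 94 lower, against 41 and 136 when rescaled to the same total and 52 and 110 when rescaled without Gm42418 and Lars2.

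The 5 genes without overlap, a count for which alternatives were chosen after seeing the data, were 5 with quantile normalization, against 8.07% of all genes, and 6 when rescaled to the same total or without Gm42418 and Lars2, against 20.8% and 13% of all genes. Leaving out a muscle cannot make separate groups overlap, so such counts are not given. The log2 difference in the Chrng to Chrne ratio, -2.80, was -4.96 with a pseudocount of 0.1, -0.95 with 10, -1.87 without WT replicate 4 and -1.15 without Dock3 KO replicates 1 and 2. Chrng was at 0 in Dock3 KO replicates 1 and 2, so the pseudocount alone sets its term of the ratio there. The cause of the other shifts was not tested. The replicate block compares the genotypes within replicates 1 and 3 only and has 1 residual degree of freedom. With it, 127 genes passed, Chrna1 stood at -0.63 and Ache at -0.82. Of the 10 genes, 0 passed in limma with the block (3 at an unadjusted p under 0.05).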
